A study of Mus musculus with 24 samples.

Results

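The 10 genes described here encode fibrillar collagen chains (Col1a1, Col1a2, Col3a1, Col5a1, Col5a2), a chain of the beaded-filament collagen VI (Col6a1) and 4 small leucine-rich proteoglycans that bind collagen (Dcn, Lum, Bgn, Fmod). They were taken by name from the 18539 gene symbols that the arrays cover, through the accession of each probe. The rule used no difference between groups, although the genes were chosen with earlier results of these data known. The arrays carry 14 probes for them among 41174, and the brightest probe of each gene was used, which was the same probe in both tissues. All 10 probes were well above background on all 24 arrays, none was saturated, and all 10 were tested in every comparison.

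The study asked how a high-fat diet changes transcripts of vascular endothelium in mice that lack galectin-3, a galactoside-binding lectin. Wild-type C57BL/6 males (WT) and galectin-3-deficient males (KO, a germline deletion present in all cells) were given chow, with 12% of calories as fat, or a high-fat diet (HFD), with 60%, for 8 weeks from the age of 8 weeks. In each of 3 experiments, tissue of 3 to 4 animals per strain and diet was pooled, digested with collagenase and sorted for live cells that carried CD105 and lacked CD45, from the aorta and from leg muscle (plantaris, gastrocnemius and biceps femoris). The amplified, Cy3-labelled RNA of the sorted cells was hybridised to single-colour Agilent arrays, and every combination of tissue, strain and diet, 8 groups in all, had 3 of them. Levels below are log2 intensities relative to the 75th percentile of the array, and differences are on the same log2 scale.

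Fibrillar collagens are secreted as procollagen trimers, trimmed at both ends, assembled into fibrils and crosslinked, and collagens I and III make up most of the fibrils of the arterial adventitia and of the sheaths of muscle, with collagen V inside the fibril. The small proteoglycans decorate the fibril surface and set fibril width and spacing, and decorin and biglycan also bind growth factors of the TGF-beta family. In most tissues these genes are expressed by fibroblasts and other mesenchymal cells, with far less in endothelium.

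The labels were checked against marker transcripts and the strain before the results. All 12 endothelial markers, Pecam1, Cdh5 and Tek among them, were well above background in every group. All 11 fibroblast markers chosen without any of the 10 genes were well above background on every aortic array, and 8 or 9 of them in each muscle group (Tcf21 on 1 of 12 muscle arrays). The summed level of the fibroblast markers was 7.02 to 8.80 on aortic and 1.89 to 5.47 on muscle arrays, beside 7.20 to 8.86 and 8.79 to 9.50 for the endothelial markers. In sorted bulk samples, fewer cells of a type and less RNA per cell cannot be told apart. The Lgals3 probe was well above background on 24 of 24 arrays and higher on the KO array in 11 of 12 pairs, so it gave no check of the strain. The paper reports its own checks of the deletion in DNA, in RNA with primers inside the deleted region, and in protein. On 20 probes that separated the strains in experiments 2 and 3, where 0 is WT and 1 is KO, the chow arrays of experiment 1 lay between 0.07 and 0.92, each on the side of their labels. Those on HFD in experiment 1 lay at 0.26 (WT) and 0.43 (KO) in aorta and at 0.38 (WT) and 0.45 (KO) in muscle, so that both KO arrays were nearer to WT than to KO. The main results of the tissue, diet and strain tests are therefore also given without experiment 1. Counts of pairs, of gaps, of non-overlapping values, of ratios above 1 and over gene lists use all experiments.

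All 10 genes were higher in aortic than in muscle samples (limma, adjusted p under 0.05 for 10 of 10, where 16.0% of 27387 tested probes were called higher in aorta). The differences ran from 1.79 for Dcn to 4.72 for Lum, with a median of 3.45 beside -0.27 over all tested probes. The smallest, those of Dcn, Col3a1 and Col1a2, came from the probes nearest to the top of the aortic signal range. The part of the signal range in these sizes was not tested. Each gene was higher in the aorta in 12 of 12 pairs of samples from the same pooled animals, and in every gene the 4 aortic groups stood above the 4 muscle groups in mean level. Without experiment 1 all 10 were called and the median was 3.84.

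**Figure D1:**
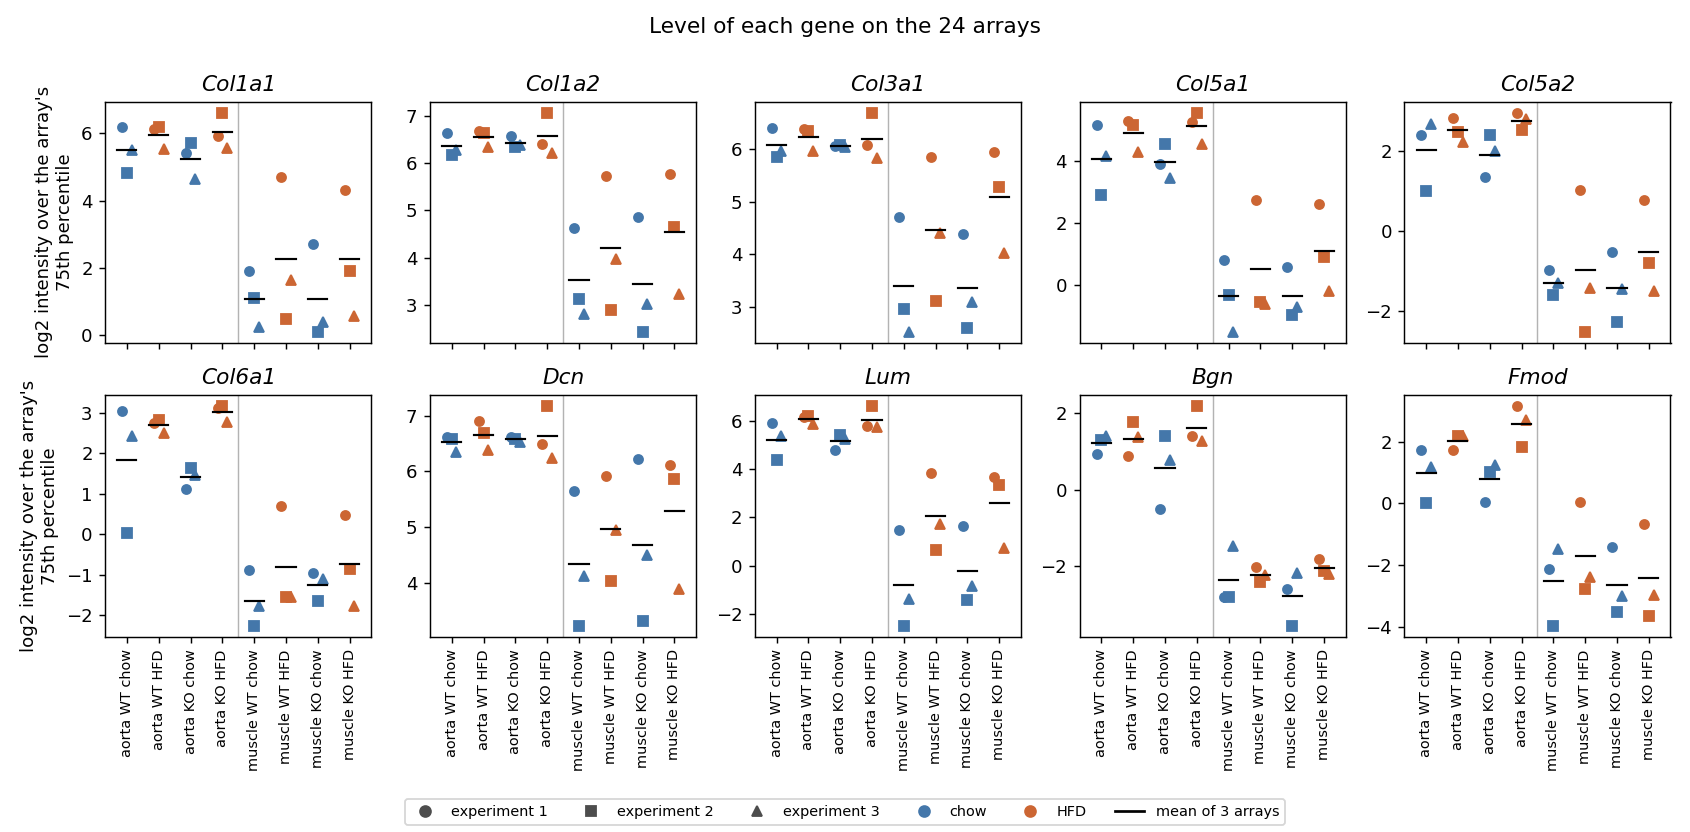
Each panel shows 1 gene, with the log2 intensity over the array's 75th percentile on the vertical axis and the 8 groups on the horizontal axis; points are single arrays, shapes are experiments, colours are diets and bars are means of 3 arrays. Muscle arrays of experiment 1 stand on average 1.40 to 2.63 above those of experiments 2 and 3 for every gene but Bgn.

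Col1a1 and Col1a2 encode the chains that combine in the collagen I trimer. Col1a1 ranged from 4.63 through a median of 5.64 to 6.61 on the 12 aortic arrays and from 0.10 through 1.37 to 4.69 on the 12 muscle arrays. Only the brightest muscle array, WT on HFD in experiment 1, reached the aortic range, and the difference was 4.01 (SE 0.47, a fold of 16.1, limma adjusted p = 1.63e-06). Col1a2 ranged from 6.18 to 7.07 in aorta (median 6.39) and from 2.44 to 5.77 in muscle (median 3.61), with no overlap and a difference of 2.55 (SE 0.35, limma adjusted p = 9.37e-06).

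Col3a1, the single chain of collagen III, lies next to Col5a2 in the mouse genome. It ranged from 5.82 to 6.69 in aorta (median 6.06) and from 2.53 to 5.93 in muscle (median 4.21), a difference of 2.06 (SE 0.32, limma adjusted p = 3.49e-05), and the muscle HFD arrays of experiment 1, at 5.85 in WT and 5.93 in KO, reached the aortic range. A second, dimmer Col3a1 probe, above background on 12 aortic but only 4 muscle arrays, gave 4.33. Col5a1 and Col5a2 encode chains of collagen V, which starts fibril assembly. Col5a1 ranged from 2.90 to 5.56 in aorta and from -1.50 to 2.75 in muscle, which did not overlap, with a difference of 4.27 (SE 0.42, limma adjusted p = 2.05e-07). The second Col5a1 probe, above background on 10 aortic and 9 muscle arrays, gave 0.62 (limma adjusted p = 0.105), so the call for Col5a1 rests on the brighter probe. Col5a2 differed by 3.35 (SE 0.35, limma adjusted p = 4.31e-07), and its lowest aortic value of 1.01 fell just below its highest muscle value of 1.02.

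Col6a1, a chain of the microfibril-forming collagen VI that links fibrils to cells, ranged from 0.03 through 2.64 to 3.17 in aorta and from -2.26 through -1.33 to 0.69 in muscle. The groups overlapped through the aortic WT chow array of experiment 2, and the difference was 3.35 (SE 0.34, limma adjusted p = 2.95e-07).

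Among the proteoglycans, Lum (lumican, which carries keratan sulphate chains) showed the widest span of muscle values. It ranged from 4.39 through 5.77 to 6.62 in aorta and from -2.48 through 1.12 to 3.84 in muscle, without overlap, and differed by 4.72 (SE 0.49, a fold of 26.3, limma adjusted p = 3.38e-07). Its neighbour in the genome, Dcn (decorin), ranged from 6.24 to 7.17 in aorta and from 3.23 to 6.22 in muscle, and its difference was 1.79 (SE 0.34, limma adjusted p = 0.000351). Bgn (biglycan, the proteoglycan nearest to decorin in structure) lay between -0.52 and 2.19 in aorta and between -3.56 and -1.47 in muscle, also without overlap, with a difference of 3.55 (SE 0.23, limma adjusted p = 1.25e-09). Fmod (fibromodulin, which guides crosslinking of collagen I) lay between 0.02 and 3.14 in aorta and between -3.94 and 0.05 in muscle, a difference of 3.90 (SE 0.41, limma adjusted p = 4.38e-07), so that the tissues overlapped only at this edge. In all, 5 of the 10 genes had every aortic value above every muscle value, as 3.54% of the probes did.

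**Figure D2:**
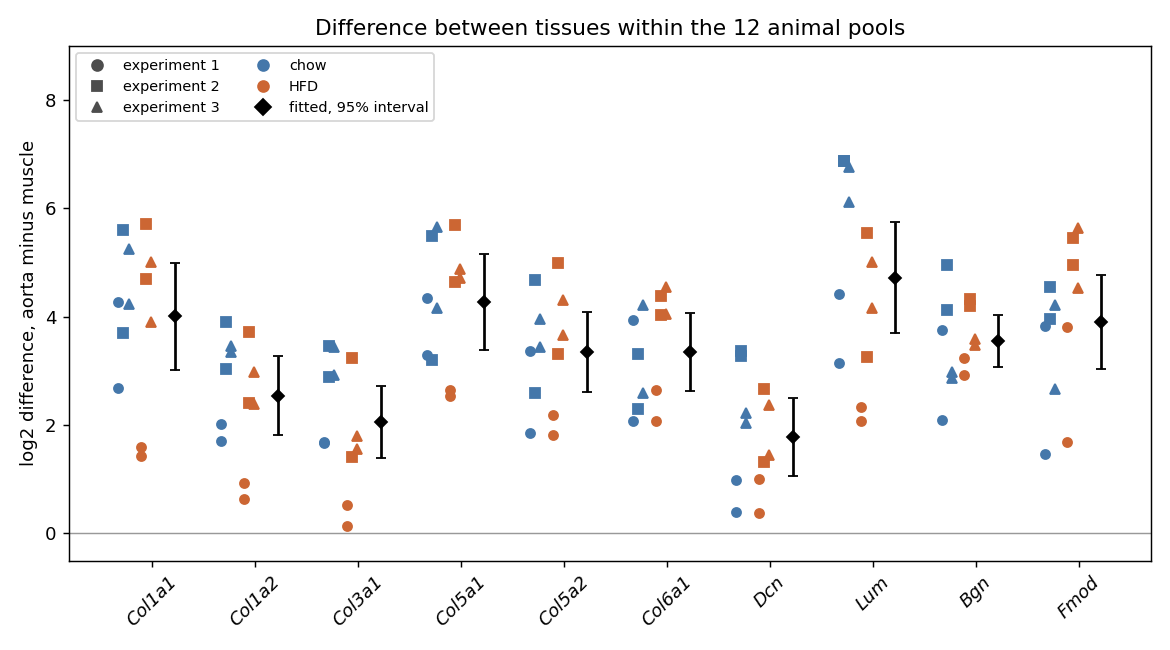
The vertical axis is the log2 difference between the aortic and the muscle sample of the same pooled animals, for each of the 10 genes; points are the 12 pools, shapes are experiments, colours are diets, and diamonds with bars are the fitted difference with its 95% interval. All points lie above 0, and the mean over the 4 pools of experiment 1 is the lowest of the 3 experiments for every gene.

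The size of the tissue difference varied between the experiments. The muscle arrays of experiment 1 stood above the mean of experiments 2 and 3 by 1.40 (Col6a1) to 2.63 (Lum) for 9 of the genes, and by 0.06 for Bgn. In aorta the same difference lay between -0.76 (Bgn) and 0.58 (Col5a1). Over experiments 1, 2 and 3, the mean difference between tissues for Lum was thus 3.00, 5.64 and 5.51, while for Bgn it was 3.00, 4.41 and 3.23. The fibroblast markers of the muscle arrays stood 2.25 higher in experiment 1 than in the others, the muscle fibre markers 1.72, the adipocyte markers 1.69, the tenocyte markers 1.48 and the endothelial markers -0.11. Experiment 1 was also scanned in a session of its own, and the part of the marker levels and of the session in the result was not tested.

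Ordered by mean level, neighbouring groups were mostly close. Of the 70 gaps between neighbours over the 10 genes, 14 exceeded the larger SD of the pair, and 10 of these were the gap between the tissues. Of the other 4, 3 had an HFD group above a chow group, and Col6a1 stood higher in aortic KO HFD (3.02 ± 0.22, SD, n = 3) than in aortic WT HFD (2.70 ± 0.17). For Fmod the gap lay between aortic WT HFD (2.03 ± 0.25) and WT chow (0.98 ± 0.87), and for Lum between aortic KO HFD (6.06 ± 0.49) and WT chow (5.23 ± 0.77) and between muscle WT HFD (2.07 ± 1.63) and KO chow (-0.21 ± 1.65).

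The diet comparison set HFD against chow within each strain and experiment. None of the 10 genes passed the limma test at adjusted p under 0.05 in either tissue, in either strain or averaged over the strains. Of all tested probes, 0.288% were called in muscle and 0.0309% in aorta when averaged over strains, 1 muscle probe (0.00389%) in KO, and none elsewhere. At unadjusted p under 0.05, all in the direction of HFD, there were 5 of the genes in muscle and 6 in aorta averaged over strains, where 7.28% and 8.45% of the probes were. Within strains there were 2 in muscle of WT (5.32% of the probes), 4 in muscle of KO (3.71%), none in aorta of WT (3.09%) and 5 in aorta of KO (6.24%). Without experiment 1 these counts were 2 in muscle and 3 in aorta averaged over strains, 1 in muscle of WT, 2 in muscle of KO, 1 in aorta of WT and 0 in aorta of KO. All 10 fitted changes were above 0 in each tissue and strain, where 48.4% to 53.1% of the probes were. The genes moved together array by array, as described below, so these are not 10 separate observations. The median of the changes was 0.82 in muscle of WT and 1.01 in muscle of KO, 0.48 in aorta of WT and 0.87 in aorta of KO. Over all tested probes the medians were -0.02, 0.00, 0.03 and -0.01 in that order. Without experiment 1, 8 of the genes were above 0 in muscle of WT, 9 in muscle of KO and 10 in aorta of each strain. Their medians were then 0.42, 0.98, 0.61 and 0.75 in the same order.

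**Figure D3:**
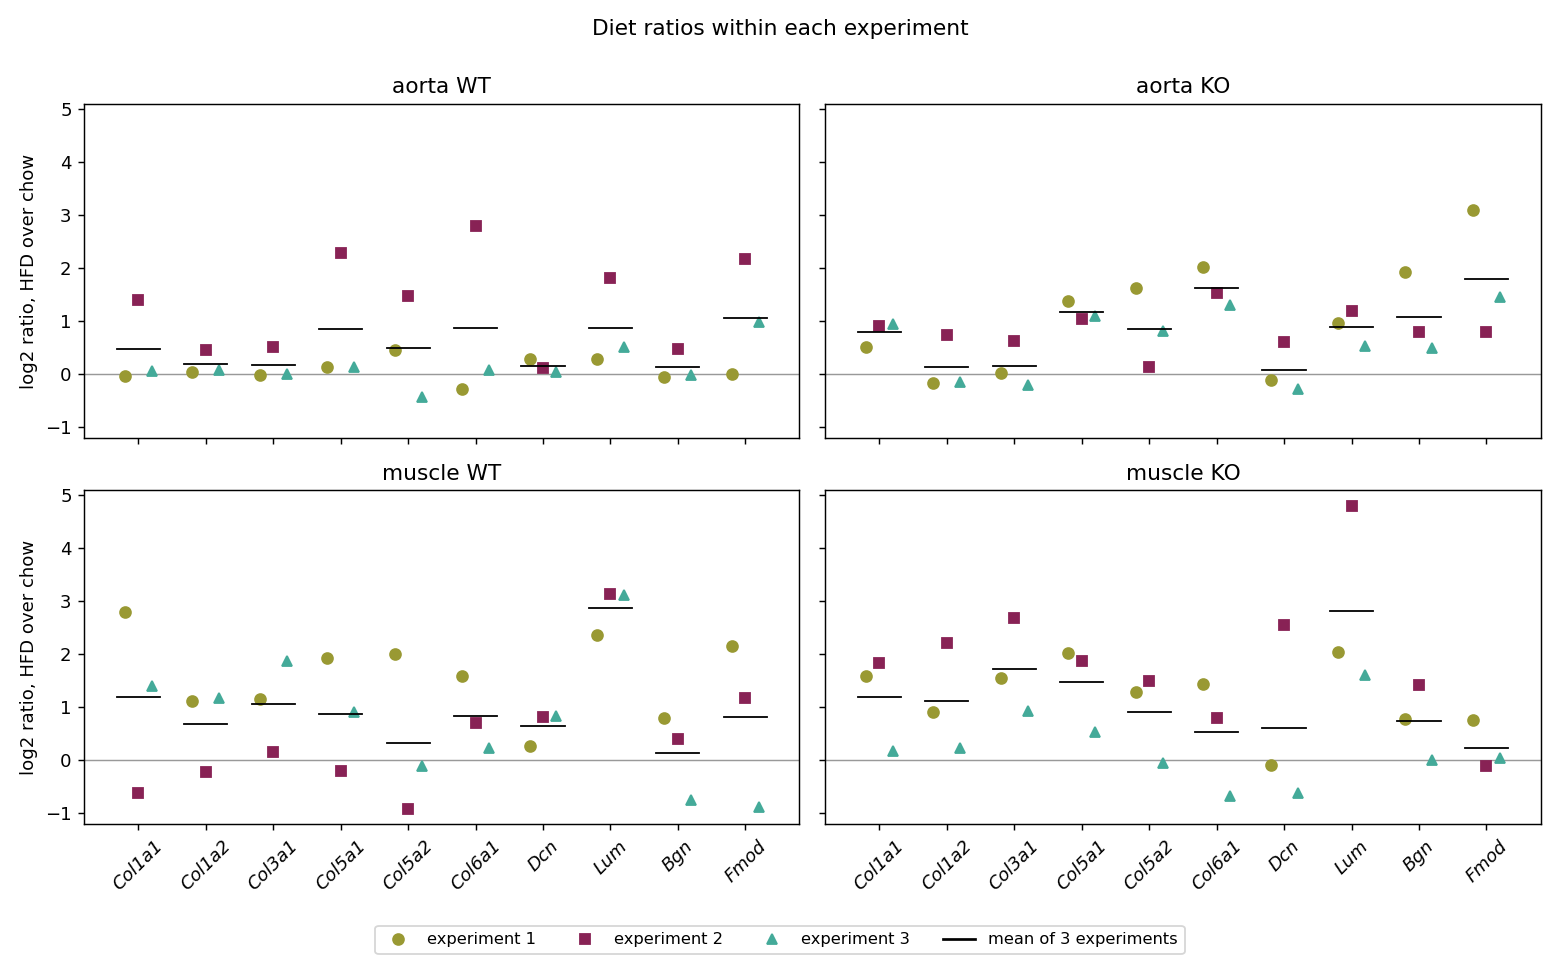
Each panel is 1 tissue and strain, with the log2 ratio of HFD to chow on the vertical axis and the 10 genes on the horizontal axis; points are the 3 experiments and bars their mean. Lum in muscle lies above 1 in every experiment of both strains, while in WT aorta the ratios above 1 all come from experiment 2.

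Lumican in muscle showed the largest change of the set. On chow, Lum lay at 1.48, -2.48 and -1.38 in WT and at 1.66, -1.44 and -0.86 in KO, in experiments 1, 2 and 3. On HFD it lay at 3.84, 0.64 and 1.72 in WT and at 3.70, 3.35 and 0.75 in KO. The groups overlapped, because the chow arrays of experiment 1 were as high as some HFD arrays of experiments 2 and 3, but within each experiment HFD was higher. In muscle none of the 10 genes had its 3 HFD values above its 3 chow values, in WT (6.49% of the probes) or in KO (4.00%). The WT ratios were 2.36, 3.13 and 3.11. The KO ratios were 2.03, 4.80 and 1.61, and all 6 exceeded 1. In WT muscle 0.876% of the probes, and in KO muscle 0.462%, had a ratio above 1 in all 3 experiments.

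Averaged over the strains, Lum was 2.84 higher on HFD (SE 0.42, 95% interval 1.85 to 3.83, a fold of 7.16, unadjusted p = 0.000285, limma adjusted p = 0.0683). The call depended on the setting. The adjusted p was 0.0190 with normexp background correction, 0.0166 when only probes above background on every array were tested and 0.0418 with the slide as the block, and over the 10 alternatives it ranged from 0.0166 to 0.298. The change itself ranged from 2.28 to 3.16 and was 3.16 without experiment 1. In WT alone it was 2.87 (SE 0.59, limma adjusted p = 0.200) and in KO alone 2.81 (SE 0.59, limma adjusted p = 0.370), and the difference between the strains was -0.05 (95% interval -2.04 to 1.93).

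The 11 fibroblast markers, summed, moved with diet in the same pairs. In muscle their ratios of HFD to chow were 1.59, 0.47 and 1.16 in WT and 0.85, 2.05 and 0.19 in KO, and 9 of the 9 markers tested had a fitted change above 0 averaged over strains, with none called. Lum exceeded this sum in 6 of 6 muscle pairs, by 0.77 to 2.75 with a median of 1.68, as 0.114% of the probes did. Bgn lay below the sum in 6 of 6 muscle pairs, with a median difference of -0.41. The sum itself rose in all 6 pairs, so a probe without a diet change would also lie below it. The share of probes that did so was not counted, and the position of Bgn is not read as particular to it. The other 8 genes exceeded it in 2 to 4 of the 6 pairs, with medians from -0.58 (Dcn) to 0.66 (Col3a1). The part of the fibroblast markers in the diet ratios was not tested. The tenocyte markers, whose summed level was higher on HFD in all 6 muscle pairs by 0.40 to 3.08, and the adipocyte markers, which were lower on HFD in 5 of the 6, also moved with diet.

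**Figure D4:**
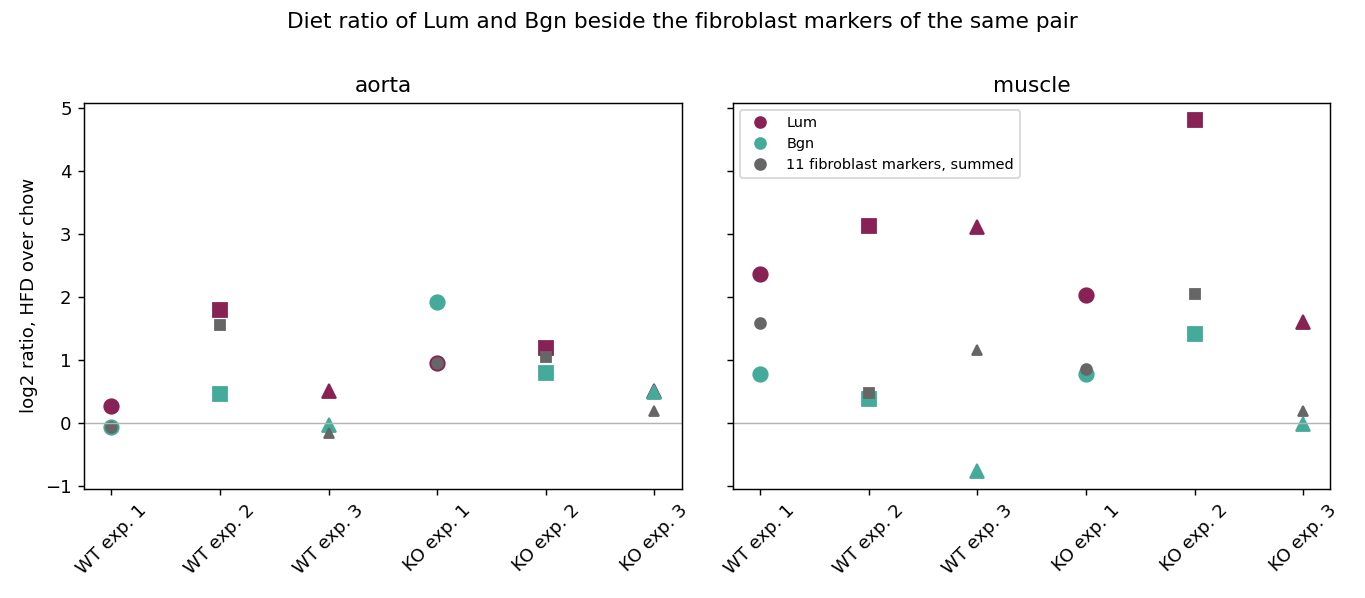
The vertical axis is the log2 ratio of HFD to chow and the horizontal axis the strain and experiment, for Lum, for Bgn and for the summed fibroblast markers; shapes are experiments. In muscle every Lum point lies above, and every Bgn point below, the fibroblast marker point of the same pair, and the fibroblast marker points all lie above 0.

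Of the 6 collagen genes of the set, Col3a1 had the largest averaged change in muscle. On chow it lay at 4.71, 2.96 and 2.53 in WT and at 4.38, 2.61 and 3.10 in KO. On HFD it lay at 5.85, 3.11 and 4.40 in WT and at 5.93, 5.28 and 4.03 in KO. HFD was higher in 6 of 6 pairs, with ratios from 0.15 to 2.67, although the values of the 2 diets overlapped. The averaged change was 1.39 (SE 0.30, 95% interval 0.67 to 2.11, limma adjusted p = 0.125), and 1.41 without experiment 1. Over both strains, 5.63% of muscle probes were higher on HFD in all 6 pairs, and of the 10 genes these were Col3a1 and Lum.

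The collagen I chains and Col5a1 were higher on HFD in 5 of 6 muscle pairs each, WT of experiment 2 being the exception in all 3. Col1a1 changed by 1.19 (SE 0.45), Col1a2 by 0.90 (SE 0.31) and Col5a1 by 1.17 (SE 0.33), with limma adjusted p of 0.264, 0.240 and 0.174, and unadjusted p under 0.05 for all 3. Without experiment 1 the values were 0.69, 0.84 and 0.77. The dimmer probe of Col5a1 gave -0.04, opposite in sign to the brighter one. Col5a2, Col6a1, Dcn, Bgn and Fmod changed by 0.43 to 0.68 with intervals that included 0, and without experiment 1 Col5a2 came to 0.09 and Fmod to 0.05. For Dcn, 1 pair stood apart, KO of experiment 2 at 2.55, while its other 5 ratios lay between -0.62 and 0.83.

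In the aorta Col1a2, Col3a1 and Dcn had the smallest averaged changes of the 10 genes, 0.16 (95% interval -0.33 to 0.65), 0.15 (-0.33 to 0.62) and 0.10 (-0.36 to 0.56). Their probes were among the brightest of the aortic arrays. Dcn reached processed intensities of 361610 to 545164 and Col1a2 351173 to 483640, where the brightest probe of an array read 485096 to 605128. The dimmer Col3a1 probe gave an averaged change of 1.91 in the aorta, against 0.15 for the brighter one (limma adjusted p of 0.137 and 0.753), and the part of the signal range in this difference was not tested.

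Fmod, Col6a1, Col5a1 and Lum had the largest averaged changes in the aorta. Fmod lay on chow at 1.73, 0.02 and 1.19 in WT and at 0.05, 1.03 and 1.25 in KO. On HFD it lay at 1.73, 2.18 and 2.17 in WT and at 3.14, 1.83 and 2.70 in KO. In both strains the 3 HFD values stood above the 3 chow values, although the WT values of experiment 1 were both 1.73, and the averaged change was 1.41 (SE 0.39, 95% interval 0.47 to 2.35, limma adjusted p = 0.224). Without experiment 1 it was 1.34.

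Col6a1 lay on chow at 3.05, 0.03 and 2.44 in WT and at 1.12, 1.65 and 1.48 in KO, and on HFD at 2.76, 2.83 and 2.51 in WT and at 3.13, 3.17 and 2.77 in KO. All 3 KO values on HFD exceeded the 3 on chow, with ratios of 2.01, 1.52 and 1.29. In WT the mean ratio of 0.86 came from experiment 2 alone, where the chow array was low, and without that experiment it was -0.11. The averaged change was 1.23 (SE 0.42, limma adjusted p = 0.267). Col5a1 showed the same split: its KO ratios were 1.36, 1.02 and 1.08 and its WT ratios 0.12, 2.27 and 0.13, for an averaged change of 1.00 (SE 0.32, limma adjusted p = 0.258).

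Col5a1 and Col6a1 were thus above 1 in all 3 experiments in KO aorta, as 1.83% of the probes were, and none of the 10 genes was in WT aorta (0.737% of the probes). In KO aorta the 3 HFD values stood above the 3 chow values for Col5a2, Col6a1, Lum and Fmod (7.20% of the probes), and in WT aorta for Fmod only (3.63%). Over experiments 1, 2 and 3 the median ratio of the 10 genes in WT aorta was 0.02, 1.42 and 0.06, and in KO aorta it was 1.16, 0.79 and 0.66. Without experiment 2, 7 of the 10 averaged aortic changes were above 0. The fibroblast markers moved alike in WT aorta, with ratios of -0.06, 1.56 and -0.16, and stood at 0.95, 1.05 and 0.19 in KO aorta.

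Lum in aorta was higher on HFD in 6 of 6 pairs, by 0.27 to 1.80, as were Col5a1, Fmod and 5.85% of all probes. The averaged change of Lum was 0.87 (SE 0.26, limma adjusted p = 0.237). Lum was above the fibroblast marker sum in all 6 pairs, by 0.01 to 0.66, as 1.30% of the probes were. Col1a1 changed by 0.62 (SE 0.25, limma adjusted p = 0.314), with dimmer probes at 1.67 and 1.78, and Col5a2 by 0.67 (SE 0.31, limma adjusted p = 0.369). Beside these values, all 12 endothelial markers had a fitted change below 0 in the aorta, with a median of -0.65, all 11 fibroblast markers one above 0, with a median of 0.57, and all 5 adipocyte markers tested one below 0, with a median of -4.14, and none was called. The summed Schwann cell markers were higher on HFD in all 6 aortic pairs, with means of 0.98 in WT and 1.26 in KO, and the tenocyte markers in 5 of 6, with means of 0.56 and 1.15.

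Whether galectin-3 loss altered the response was tested by the difference between the responses of KO and WT. No gene of the 10 passed the limma test in aorta or muscle, and none had an unadjusted p under 0.05, where 2.62% of aortic and 4.12% of muscle probes did. In aorta the differences lay between -0.08 and 0.95, the highest being Bgn. Its WT ratios were -0.06, 0.46 and -0.03 and its KO ratios 1.93, 0.79 and 0.49, in experiments 1, 2 and 3. The difference was 0.95 (95% interval -0.21 to 2.10, limma unadjusted p = 0.0938). Without experiment 1 the aortic differences lay between -0.44 (Fmod) and 0.43 (Bgn), and 4 of the 10 were above 0 in place of 7. There Fmod went from 0.74 to -0.44, Col6a1 from 0.75 to -0.02, Col5a1 from 0.32 to -0.15 and Lum from 0.03 to -0.30. In muscle the differences lay between -0.59 (Fmod) and 0.66, and the widest 95% interval, that of Col1a1, ran from -2.13 to 2.14. Without experiment 1 the muscle differences lay between -0.40 (Col6a1) and 1.25 (Col5a2), with none at unadjusted p under 0.05 in either tissue.

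Between the strains on the same diet, no gene was called by limma and none had an unadjusted p under 0.05, where 4.41% (chow) and 1.15% (HFD) of aortic and 2.42% and 3.15% of muscle probes did. On chow the KO minus WT differences lay between -0.66 (Bgn) and 0.07 in aorta and between -0.42 and 0.58 (Lum) in muscle. Without experiment 1 the aortic differences on chow turned, from 2 to 9 of the 10 above 0 and from a median of -0.12 to 0.24, with a range of -0.26 (Bgn) to 0.53 (Fmod). In muscle on chow they then lay between -0.74 (Bgn) and 0.78 (Lum). On HFD they lay between -0.03 and 0.53 (Fmod) in aorta and between -0.72 (Fmod) and 0.63 in muscle, and without experiment 1 between 0.09 and 0.32 in aorta and between -0.72 (Fmod) and 0.93 (Col5a1) in muscle. The widest 95% interval, that of Lum in muscle on chow, ran from -2.13 to 3.29. Of all tested probes, 0.0116% were called between the strains in aorta on chow, 0.00387% in aorta on HFD and none in muscle.

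Other genes of collagen biology were counted as lists, beside 16.0% of all tested probes called higher and 30.1% called lower in aorta. Of 11 other collagen genes tested between the tissues, 8 were higher in aorta and none lower, led by Col14a1 (collagen XIV, on fibril surfaces, 7.44), Col8a2 (a short-chain collagen, 5.22) and Col2a1 (collagen II, 4.64). Of 10 other small leucine-rich proteoglycans, 7 were higher and 2 lower, led by Omd (osteomodulin, 5.80), Ogn (osteoglycin, 4.25) and Podn (podocan, 4.18). Of 24 genes of collagen processing and crosslinking, 16 were higher and 1 lower, led by Adamts2, the amino-end procollagen protease (6.16), Pcolce2, an enhancer of the carboxy-end protease (5.63), and Loxl1, a lysyl oxidase (5.29). Of 13 TGF-beta pathway genes, 8 were higher and 1 lower, led by Tgfbi (a TGF-beta induced matrix protein, 5.67), Smad3 (2.82) and Tgfb3 (2.63). The highest limma adjusted p among these 12 genes was 9.95e-07.

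With diet, 1 gene of these lists was called when averaged over strains. Loxl1 was 1.34 higher on HFD in muscle (SE 0.17, limma adjusted p = 0.0485), and 1.51 higher in aorta (SE 0.43, limma adjusted p = 0.228). Its muscle call was lost under 7 of the alternatives, with adjusted p up to 0.428 without the pairing and 0.311 without experiment 1, although the change stayed between 1.30 and 1.42 in these. Not called in muscle were Col8a2 (2.99), Col14a1 (2.93), Kera (keratocan, the neighbour of Lum, 2.29), Prelp (0.74) and Tgfbi (1.14). Not called in aorta were Col27a1 (2.44), Col6a2 (the partner chain of Col6a1, 1.91), Loxl4 (1.06), Podn (1.45), Aspn (0.46), Ltbp1 (1.14) and Tgfb3 (1.01). All 24 processing genes had an averaged change above 0 in aorta, with a median of 0.48, and 19 of 22 in muscle, with a median of 0.21, beside 0.01 and -0.01 over all tested probes.

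Array by array, the 10 genes moved together. Taken as deviations from the 8 group means over 24 arrays, the 45 gene pairs had Pearson r from 0.04 (Bgn and Col5a1) through a median of 0.76 to 0.98 (Col1a2 and Col3a1). The points share sorted pools and slides, so these values are a description. The muscle deviations also hold the offset of experiment 1 from the other experiments. It was 1.40 to 2.63 for every gene but Bgn (0.06), and 2.25 for the summed fibroblast markers. The part of this offset in r was not tested, and no r was computed without experiment 1. All levels of an array also share the value it was divided by, which ran from 3611 to 5938 over the aortic arrays. In aorta Dcn, Col1a2 and Col3a1 lay near the top of the signal range, with a median of 0.01%, 0.02% and 0.15% of probes brighter. Col1a2 and Col3a1 had r of 0.96 in aorta and 0.98 in muscle. The part of the shared scaling value in r was not tested. In muscle the median r was 0.83 over 12 arrays, and in aorta it was 0.45, with Dcn and Fmod at -0.48. The mean of the 10 genes followed the summed fibroblast markers with r of 0.98 over 24 arrays, 0.91 in aorta and 0.99 in muscle, and the endothelial markers with -0.28. Markers of other cell types also followed it, in muscle the skeletal muscle fibre (0.91), Schwann cell (0.90), adipocyte (0.85) and smooth muscle and pericyte (0.84) lists, and in aorta the Schwann cell (0.80) and tenocyte (0.74) lists. The genes outside the set most like this mean were Mmp23, Svep1, Olfml3 and Adamts2 (r of 0.97 each) and Pi16 (0.96), the last itself one of the fibroblast markers.

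**Figure D5:**
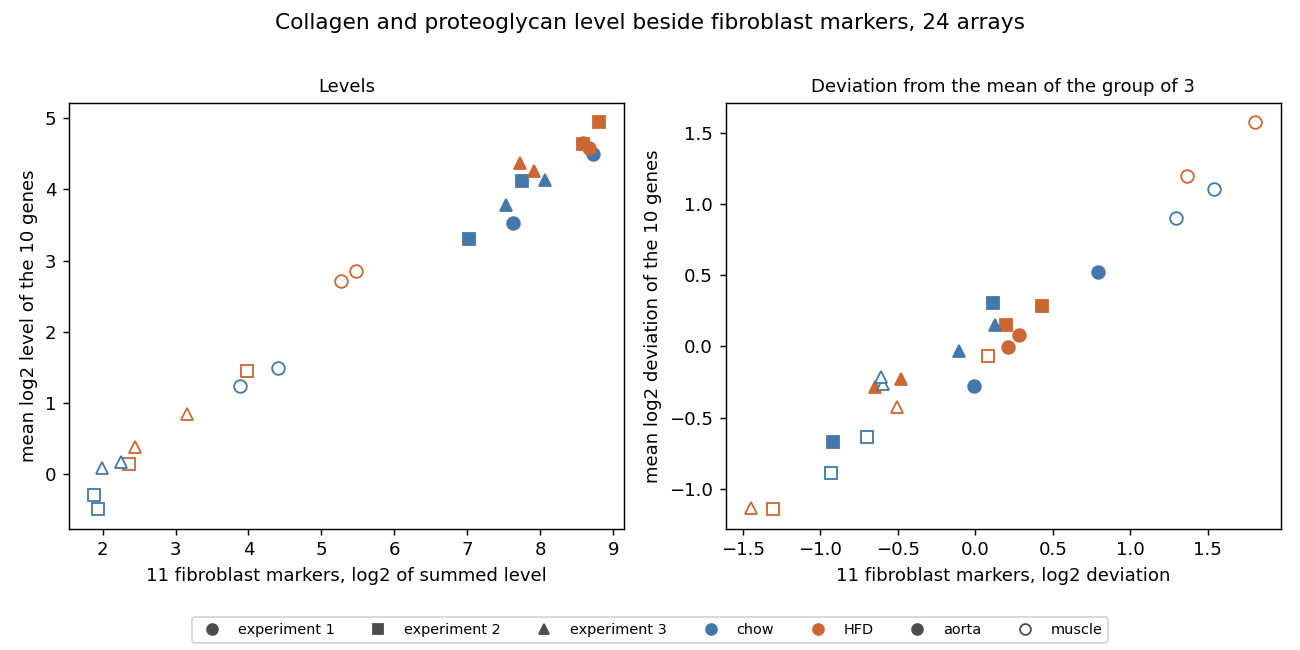
The mean log2 level of the 10 genes (vertical axis) is plotted against the log2 of the summed level of 11 fibroblast markers (horizontal axis), as levels on the left and as deviations from the mean of each group on the right; points are the 24 arrays, filled for aorta and open for muscle. Pearson r over the deviations is 0.98, and there the 4 muscle arrays of experiment 1 lie highest. Shapes are experiments and colours are diets.

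The reference table of promoters (RefSeq, GRCm38.p6) holds 6 of the 10 genes, and the 250 bases before the start are printed for the pair that moved together most, Col1a2 (chr6:4505368-4505617, plus strand) and Col3a1 (chr1:45311288-45311537, plus strand), and for Bgn, which belongs to the pair that moved together least (chrX:73483351-73483600, plus strand). Capitals mark matches to the letters of the CCAAT box, the GC box (letters GGGCGG) and the TATA box (letters TATAAA) on either strand. These are letter matches only, and the TATAAA of Col3a1 lies at -117 from the start. The GC box matches of Bgn are on the reverse strand, the last 2 of its 3 overlapping.
Col1a2: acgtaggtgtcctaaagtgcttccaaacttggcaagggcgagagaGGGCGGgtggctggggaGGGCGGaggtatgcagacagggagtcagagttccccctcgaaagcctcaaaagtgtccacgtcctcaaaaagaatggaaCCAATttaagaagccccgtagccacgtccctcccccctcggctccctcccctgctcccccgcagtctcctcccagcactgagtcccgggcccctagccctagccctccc
Col3a1: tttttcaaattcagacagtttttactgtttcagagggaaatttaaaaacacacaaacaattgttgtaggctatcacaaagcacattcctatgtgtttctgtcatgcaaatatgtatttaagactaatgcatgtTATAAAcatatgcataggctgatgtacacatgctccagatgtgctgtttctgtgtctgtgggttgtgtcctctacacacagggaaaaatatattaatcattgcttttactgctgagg
Bgn: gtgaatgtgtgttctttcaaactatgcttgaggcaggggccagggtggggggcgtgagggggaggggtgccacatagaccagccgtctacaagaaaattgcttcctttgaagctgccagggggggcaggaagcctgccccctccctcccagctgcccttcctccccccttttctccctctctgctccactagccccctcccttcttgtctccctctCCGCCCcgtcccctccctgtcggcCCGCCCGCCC
CCAAT was found in Col1a2 alone of the 6 (33.8% of 32851 windows of all genes held it), TATAAA in Col3a1 alone (12.4%) and GGGCGG in Col1a2, Col5a1 and Bgn (32.7%). CAGAC, the core bound by Smad proteins, was found in Col1a2, Col3a1, Col5a1 and Fmod, and in 42.2% of all windows. The closest pair thus shared none of the first 3 motifs in this window.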

How the data were processed

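The arrays were scanned and read with Agilent Feature Extraction (version 10.5.1.1 per the file headers, 9.1 in the submitters' processing notes). Per the file headers, the processed signal is a background-corrected intensity, used here as deposited. A matrix of log2 values that the authors made from these arrays was used as an alternative. Within an array it differed from the scaled values described below by a near-constant (median SD of the difference 4.4e-07). It was therefore not an independent alternative. Columns of no sample of the series numbered 0.

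Control spots and outlier spots were left out, each array was divided by its 75th percentile (2390 to 5938), log2 was taken and spots of a probe were averaged (R 4.3.3, limma 3.58.1, data.table, version 1.17.8). For a test in a tissue, some group of that tissue had to show the probe well above background on all its arrays. This left 25865 probes in aorta and 25682 in muscle. Within an array, the minimum was a 0.5 share of the probe's spots. Of the spots, 59.5% to 75.7% were well above background. Gene names came from probe accessions through RefSeq. Of several probes of a gene the brightest was used.

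Diet was fitted with a block for each strain and experiment, strain on 4 group means and tissue on 8, with Benjamini-Hochberg adjustment over all tested probes and a threshold of 0.05. The steps were tested on simulated data with independent noise and no experiment or pool effect, so that test does not cover such effects. The members and lists were chosen with earlier results of these data known. All 10 genes are named, with the extremes of each list, except 1 gene that is not reported here. The 24 samples come from 12 pools of animals, each of which gave both tissues. The p-values for diet measure the spread of the HFD to chow ratios over 3 experiments within each strain. Those for strain and tissue measure the spread between 3 pools a group, and the main tissue fit did not pair the tissues of a pool. The labels' replicate numbers are the experiments, and each slide held 1 tissue of 1 experiment. Deviations of same-numbered arrays correlated at 0.01 to 0.46 between diets, 0.06 to 0.62 between strains and 0.07 to 0.40 between tissues. Normexp used the median in place of the planned mean signal. Other alternatives were quantile normalization, probe filters, other probes, blocks and leaving out each experiment.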

Additional observations from a re-analysis of the deposited data

How the results depend on the processing

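The tissue difference was called for all 10 genes under every alternative run except the other probe of Col5a1, which gave 0.62 (limma adjusted p = 0.105). No diet change of a member was called except that of Lum in muscle averaged over strains, which made 1 member called under normexp background correction, 1 with probes well above background on every array and 1 with the slide as a block.

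Leaving out 1 experiment turned the sign of some diet changes, none of them called, whose values then ran in WT aorta over Col3a1 -0.017 to 0.25, Col6a1 -0.11 to 1.43, Bgn -0.045 to 0.21; in KO aorta over Col1a2 -0.17 to 0.28, Col3a1 -0.098 to 0.32, Dcn -0.20 to 0.24; in aorta averaged over strains over Col1a2 -0.056 to 0.27, Col3a1 -0.058 to 0.28, Dcn -0.023 to 0.21; in WT muscle over Col5a2 -0.53 to 0.93, Bgn -0.19 to 0.59; and in KO muscle over Dcn -0.36 to 1.22, Fmod -0.040 to 0.39. The other probe of Col5a1 gave -0.19 in KO muscle and -0.043 averaged over strains. The strain and KO minus WT differences that turned without experiment 1 stand beside those results. The causes were not tested.

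Counts of probes called also moved. For diet averaged over strains they were 8 in aorta (0 to 58 over the alternatives) and 74 in muscle (0 to 274), for tissue 12630 (7715 to 15645) and for strain on chow in aorta 3 (0 to 16). Replicate numbers mark shared experiments. Without the replicate block 50 aortic and 51 muscle probes were called for diet, with 0 members. With the experiment as a replicate block, 0 members were called between strains. With the animal pool as a replicate block, 15645 probes and 10 members were called between tissues. Precision is limited by the 3 arrays a group.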
